A study of Mus musculus with 20 samples.

Results

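The clustered Hox genes are the 39 genes whose symbol is Hox, a letter from a to d and a number from 1 to 13, chosen by symbol alone from the 53440 symbols of the RNA table and found in full among the 20462 genes of each ChIP table. They stand in 4 clusters, with 11 genes in Hoxa (chromosome 6), 10 in Hoxb (chromosome 11, 96194316 to 96368256), 9 in Hoxc (chromosome 15, 102921103 to 103036852) and 9 in Hoxd (chromosome 2, 74668310 to 74765142), in mm10 coordinates from the RNA table. Hoxd4 had 2 entries in the RNA table, and the one with the higher mean was used. The 4 groups were knockout EBs, wild-type EBs, knockout ES cells and wild-type ES cells, all from the TL1 mouse line, with 2 RNA libraries and 1 library each of H3K27me3 and H3K4me3 a group. "Knockout" here means p150-depleted with CRISPR/Cas9. p150, encoded by Chaf1a, is the large subunit of CAF-1, a chaperone that places newly made histones H3 and H4 on replicating DNA. ES cells were kept with LIF, which holds mouse ES cells pluripotent, and EBs (embryoid bodies, cell aggregates that differentiate) were grown without it. Neither the day of EB culture nor how many knockout clones were used is given in the sources used here, and nothing says that the RNA libraries of a group came from separate cultures, so a p-value here reflects only how the sequenced libraries varied, and that variation may be technical. The 4 input libraries were not analysed here.

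Hox genes encode homeodomain transcription factors that give cells their position along the head-to-tail axis. Within a cluster the genes are numbered from the end that is switched on first and farthest forward in the embryo (paralogue 1) to the end that is switched on last and in the tail (paralogue 13), and genes with the same number in different clusters are paralogues. In mouse ES cells the clusters are silent and are known as targets of Polycomb, whose complex PRC2 places H3K27me3, a mark of repressed chromatin, while H3K4me3, placed by Trithorax-type methyltransferases, marks promoters that are active or held ready. On differentiation the genes to be expressed lose Polycomb marking and the others keep it.

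Promoter windows, 250 bases before to 50 after the start, were at hand from RefSeq (GRCm38.p6) as 24 entries for 22 of the 39 genes. Some are shown because both marks and the RNA moved at their genes, apart from the RNA of Hoxd12. They are also shown because the windows differ widely in CpG, the dinucleotide that is dense at many Polycomb-bound promoters. The capitals mark CG. The first 5 belong to genes among the most strongly lowered in knockout EBs, and Hoxd12 was close to 0 FPKM in all groups; these windows were picked after the values were seen. Each is written in the direction of transcription.
Hoxa10 (chr6:52234890-52235189, minus strand): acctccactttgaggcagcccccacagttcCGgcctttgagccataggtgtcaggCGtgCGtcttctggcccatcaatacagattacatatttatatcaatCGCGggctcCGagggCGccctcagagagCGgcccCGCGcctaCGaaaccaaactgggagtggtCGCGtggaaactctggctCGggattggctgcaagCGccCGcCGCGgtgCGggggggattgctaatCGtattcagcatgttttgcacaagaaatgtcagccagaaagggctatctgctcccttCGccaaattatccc
Hoxa13 (chr6:52260831-52261130, minus strand): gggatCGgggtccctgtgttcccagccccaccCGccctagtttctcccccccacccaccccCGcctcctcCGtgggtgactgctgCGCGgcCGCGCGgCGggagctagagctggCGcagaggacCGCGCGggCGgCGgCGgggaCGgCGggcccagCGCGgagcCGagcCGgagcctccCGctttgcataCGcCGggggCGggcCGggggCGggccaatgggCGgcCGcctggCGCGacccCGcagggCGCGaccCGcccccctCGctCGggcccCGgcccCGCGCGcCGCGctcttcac
Hoxb4 (chr11:96318017-96318316, plus strand): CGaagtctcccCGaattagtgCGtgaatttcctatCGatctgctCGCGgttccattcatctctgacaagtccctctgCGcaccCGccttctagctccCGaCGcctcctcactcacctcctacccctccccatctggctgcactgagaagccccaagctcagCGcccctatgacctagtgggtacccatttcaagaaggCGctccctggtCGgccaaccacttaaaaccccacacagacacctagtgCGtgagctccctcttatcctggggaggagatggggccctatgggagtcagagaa
Hoxd8 (chr2:74704365-74704664, plus strand): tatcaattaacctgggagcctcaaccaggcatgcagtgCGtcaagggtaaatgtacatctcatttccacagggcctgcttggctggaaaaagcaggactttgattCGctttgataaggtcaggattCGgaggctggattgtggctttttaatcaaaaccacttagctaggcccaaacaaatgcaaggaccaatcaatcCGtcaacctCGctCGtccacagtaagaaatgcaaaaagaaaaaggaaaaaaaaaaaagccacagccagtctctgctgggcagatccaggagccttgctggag
Hoxd9 (chr2:74697513-74697812, plus strand): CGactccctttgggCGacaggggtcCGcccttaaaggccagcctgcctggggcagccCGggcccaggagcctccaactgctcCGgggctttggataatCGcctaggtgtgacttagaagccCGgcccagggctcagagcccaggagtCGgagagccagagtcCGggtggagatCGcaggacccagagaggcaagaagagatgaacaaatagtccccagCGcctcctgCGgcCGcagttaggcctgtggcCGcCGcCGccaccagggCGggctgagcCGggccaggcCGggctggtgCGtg
Hoxd12 (chr2:74674763-74675062, plus strand): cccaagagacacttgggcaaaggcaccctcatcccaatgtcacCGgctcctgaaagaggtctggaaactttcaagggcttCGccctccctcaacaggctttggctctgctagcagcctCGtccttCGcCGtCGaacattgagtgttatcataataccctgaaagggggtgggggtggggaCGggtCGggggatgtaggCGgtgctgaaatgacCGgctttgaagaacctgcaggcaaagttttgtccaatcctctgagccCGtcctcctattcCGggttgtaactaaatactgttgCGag
The Hoxa13 window held 45 CG and the Hoxd8 window 6, so these windows lie near both ends of the members' range of 4 to 45. Hoxa10 had 2 windows, and the one printed, which lies inside its locus, held 21 CG. The other (chr6:52240805-52241104), at the start of the locus in the RNA table, held 12. The median over the 24 windows was 14.5 CG, against 7.0 over all 32851 windows, and the median GC content was 57.7%, against 52.7%. A CCAAT box, read on both strands, stood in 62.5% of the Hox windows and in 37.4% of all windows. TATAAA was found in 16.7% against 13.6%, TGATNNAT in 16.7% against 8.85%, and TTTATG in 20.8% against 11.9%, also on both strands. A match of 1 motif may share bases with a match of another. These are matches of letters and no measure of binding.

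The Chaf1a RNA level, the target of the depletion, was 31.6 and 35.0 FPKM in knockout EBs, against 31.7 and 32.1 FPKM in wild-type EBs (limma adjusted p = 0.756), and 48.1 and 38.0 FPKM in knockout ES cells, against 49.5 and 43.0 FPKM in wild-type ES cells. It did not separate the genotypes, and as a Cas9 edit need not lower the RNA, the genotypes rest on the labels. Pou5f1, the pluripotency factor, was at 547 and 508 FPKM in knockout EBs, against 35.3 and 65.9 FPKM in wild-type EBs (adjusted p = 0.000323). The 8 ES-cell markers summed to 7514 and 5291 FPKM in knockout EBs, against 284 and 515 FPKM in wild-type EBs, with all 8 called higher, in a fit that called 20.0% of the genes tested higher and 25.9% lower. The 8 cardiomyocyte markers, all called lower, summed to 29.9 and 279 FPKM in knockout EBs, against 4690 and 3420 FPKM in wild-type EBs. Markers of blood and endothelium were called lower in 7 of 8, and they summed to 71.0 and 89.5 FPKM in knockout EBs, against 2361 and 599 FPKM in wild-type EBs. Fibroblast and feeder markers were called lower in 7 of 8 and higher in 1. Their sums were 39.3 and 84.1 FPKM in knockout EBs, against 731 and 957 FPKM in wild-type EBs. In ES cells these markers summed to 52.1 and 44.3 FPKM in the knockout, against 7.79 and 9.76 FPKM in wild type. There 1 of 8 was called higher (0.421% of all genes tested), and no member of the other cell type lists was called. Of neural markers all 4 tested were called lower. The 7 neural markers with RNA values, tested or not, summed to 6.87 and 14.7 FPKM in knockout EBs, against 68.4 and 77.6 FPKM in wild-type EBs. Endoderm markers were called lower in 6 of 8, and of mesoderm markers 3 of 4 were called lower and 1 higher. Their part in the Hox values was not tested, and in these bulk libraries fewer cells of a type and less RNA per cell cannot be told apart.

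Wild-type EBs expressed a broad set of Hox genes at low levels, and knockout EBs expressed few. FPKM is the fragments of a gene per length of transcript and per depth of the library. The 39 genes summed to 9.12 and 20.2 FPKM in knockout EBs, against 72.6 and 82.8 FPKM in wild-type EBs. They summed to 3.88 and 3.21 FPKM in knockout ES cells, against 3.01 and 2.79 FPKM in wild-type ES cells. Genes at 1 FPKM or more numbered 2 and 4 in the knockout EB libraries and 23 and 24 in the wild-type EB libraries, and 0 in each of the 4 ES libraries, where no member passed 0.809 FPKM. The second knockout EB library held more Hox RNA than the first, with 29 of 39 members higher in it, and the markers of differentiated cells given above were higher in it as well.

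**Figure D1:**
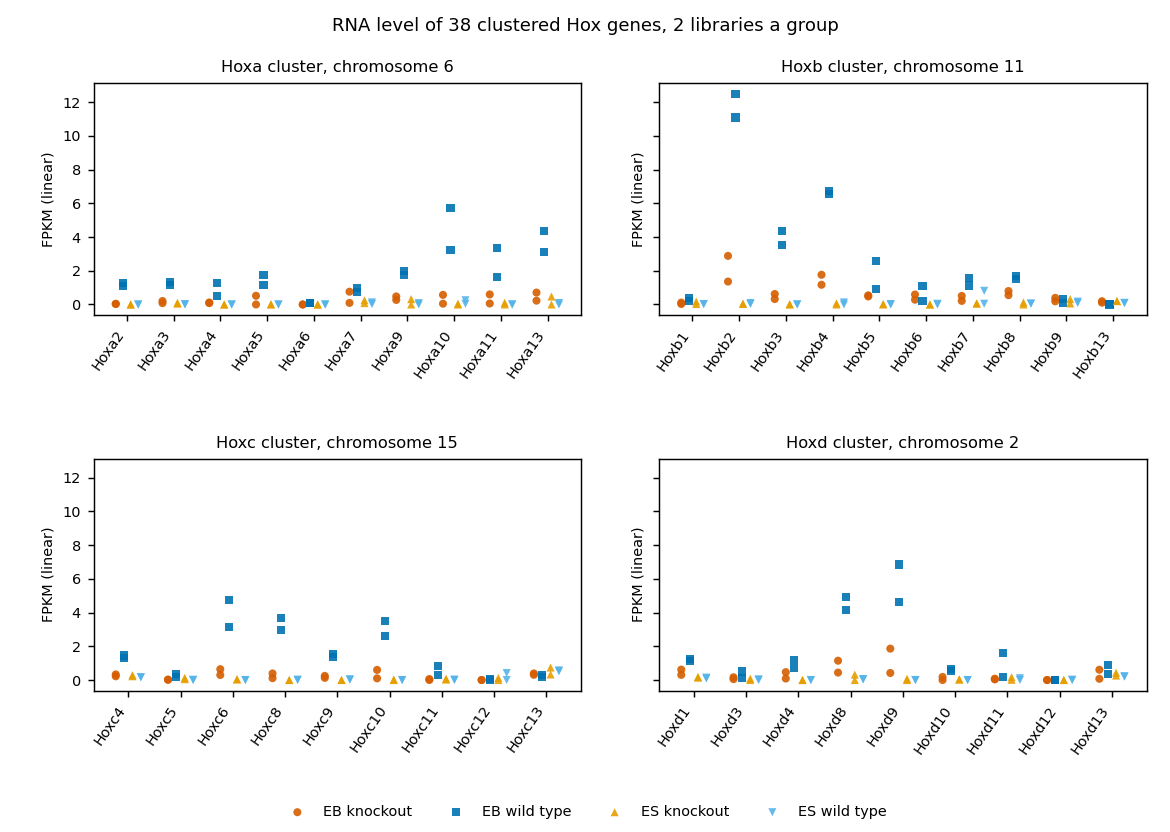
FPKM on a linear axis of 38 of the 39 Hox genes in the 4 clusters, in paralogue order. Each point is 1 of 8 RNA libraries, with EB knockout to the left of EB wild type and ES knockout to the left of ES wild type. The wild-type EB points stand highest for Hoxb2, at 12.5 and 11.1 FPKM, and few knockout EB points reach 1 FPKM.

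The highest member in wild-type EBs was Hoxb2, a hindbrain gene of the anterior group, at 11.8 ± 0.995 FPKM (mean ± SD, n = 2). Hoxb4 came next at 6.62 ± 0.113 FPKM, and the ranges of these 2 genes did not overlap. Below Hoxb4 each of the next 8 genes (Hoxd9, Hoxd8, Hoxa10, Hoxc6, Hoxb3, Hoxa13, Hoxc8 and Hoxc10, from 5.74 ± 1.57 to 3.06 ± 0.63 FPKM) overlapped its neighbour in range. The order of neighbours was thus not resolved. Genes farther apart could differ without overlap, as Hoxd9 (4.62 and 6.85 FPKM) did from Hoxc10 (2.61 and 3.51 FPKM). The leading genes came from all 4 clusters and from anterior to posterior paralogue numbers.

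By cluster, Hoxb held the most RNA, summing to 4.78 and 8.31 FPKM in knockout EBs, against 30.1 and 26.3 FPKM in wild-type EBs. Hoxa summed to 1.5 and 4.33 FPKM in knockout EBs, against 17.7 and 23.1 FPKM in wild-type EBs. Hoxc summed to 1.27 and 2.6 FPKM in knockout EBs, against 12.9 and 15.6 FPKM in wild-type EBs. Hoxd summed to 1.57 and 4.98 FPKM in knockout EBs, against 11.8 and 17.8 FPKM in wild-type EBs. In each cluster both knockout EB libraries lay below both wild-type EB libraries. The division over paralogue numbers was alike: paralogues 1 to 3 held 31.8% and 24.1% of the Hox FPKM in knockout EBs, against 31.9% and 25.4% in wild-type EBs. Paralogues 4 to 8 held 44.4% and 42.5% in knockout EBs, against 40.6% and 36.0% in wild-type EBs, and paralogues 9 to 13 held 23.8% and 33.4%, against 27.4% and 38.6%.

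The knockout and wild-type EBs were compared with limma on log2(FPKM + 1), with Benjamini-Hochberg adjustment over all genes and a call at adjusted p under 0.05. Of the 39 members 21 reached the minimum of 1 FPKM in 2 of the 8 libraries, and all 21 did so through the wild-type EB libraries, 17 of them through no other library. Among these, 20 were called lower in knockout EBs and 0 higher (25.9% of the 15428 genes tested were called lower and 20.0% higher), but the filter selected genes that were high in wild-type EBs, and that count supports nothing by itself. With no such filter, 23 of all 39 members were called lower and 0 higher, against 12.3% of 32032 genes called lower and 8.44% higher. Without the filter the median of the 39 log2 differences was -0.79, against 0 over all genes. For 30 of 39 members both knockout EB libraries lay below both wild-type EB libraries, which held for 28.9% of all genes. At an unadjusted limma p under 0.05, 30 of 39 members differed without the filter, 29 of them lower in knockout EBs and 1, Hoxb13, higher. The share of all genes at that limit was not taken, so this count is no result about the members.

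In Hoxa, 9 of 11 members were called lower without the filter, and Hoxa7 was not. In Hoxb it was 4 of 10, in Hoxc 6 of 9 and in Hoxd 4 of 9. By paralogue number, 5 of 8 members of numbers 1 to 3, 10 of 15 of numbers 4 to 8 and 8 of 16 of numbers 9 to 13 were called lower. The 8 posterior members that were not called were Hoxb9, Hoxb13, Hoxc11, Hoxc12, Hoxc13, Hoxd11, Hoxd12 and Hoxd13, and among these Hoxd12 was close to 0 in all groups and Hoxc12 in both EB groups. Hoxc12 was at 0.411 FPKM in 1 wild-type ES library and at 0 in the other.

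Hoxb2 (ENSMUSG00000075588.6, chromosome 11, 96350525 to 96354012), which patterns the hindbrain, was at 1.36 and 2.88 FPKM in knockout EBs, against 12.5 and 11.1 FPKM in wild-type EBs. Its log2 difference was -2.08 (SE 0.25, adjusted p = 0.00116), and it remained the highest member in both knockout EB libraries. Hoxb3 (ENSMUSG00000048763.11, chromosome 11, 96323326 to 96347930), also a hindbrain gene, was at 0.321 and 0.622 FPKM in knockout EBs, against 3.53 and 4.36 FPKM in wild-type EBs. Its log2 difference was -1.75 (SE 0.18, adjusted p = 0.000742). Both groups were well separated at these genes, although the loci of Hoxb2 and Hoxb3 overlap that of the antisense Hoxb3os and the counting is not stated to use strand.

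Hoxa10 (ENSMUSG00000000938.11, chromosome 6, 52231197 to 52240854), a gene of the posterior trunk, was at 0.0468 and 0.571 FPKM in knockout EBs, against 3.24 and 5.73 FPKM in wild-type EBs. Its log2 difference was -2.06 (SE 0.29, adjusted p = 0.00192). Hoxa13 (ENSMUSG00000038203.18, chromosome 6, 52257694 to 52260880), needed for the ends of the limbs and the hindgut, was at 0.227 and 0.707 FPKM in knockout EBs, against 3.09 and 4.33 FPKM in wild-type EBs. Its log2 difference was -1.69 (SE 0.27, adjusted p = 0.00288). The 2 knockout EB libraries differed more from each other at both genes than at Hoxb2 in relative terms, and both lay below the wild-type EB libraries.

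Hoxc8 (ENSMUSG00000001657.7, chromosome 15, 102990607 to 102994111), a gene of the thoracic trunk, was at 0.11 and 0.389 FPKM in knockout EBs, against 3.67 and 2.94 FPKM in wild-type EBs. Its log2 difference was -1.79 (SE 0.18, adjusted p = 0.00073). Hoxc6 (ENSMUSG00000001661.5, chromosome 15, 102998257 to 103011881), its neighbour, was at 0.299 and 0.643 FPKM in knockout EBs, against 3.14 and 4.75 FPKM in wild-type EBs, with a log2 difference of -1.74 (SE 0.22, adjusted p = 0.00126). The annotated locus of Hoxc5 runs over both genes, and how reads were divided among them is not given in the sources used here.

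Hoxd9 (ENSMUSG00000043342.9, chromosome 2, 74697727 to 74700208), which acts in the lumbar trunk and the limb, was at 0.418 and 1.86 FPKM in knockout EBs, against 4.62 and 6.85 FPKM in wild-type EBs. Its log2 difference was -1.72 (SE 0.34, adjusted p = 0.00615). Hoxd8 (ENSMUSG00000027102.4, chromosome 2, 74704615 to 74707933) was at 0.441 and 1.15 FPKM in knockout EBs, against 4.16 and 4.94 FPKM in wild-type EBs, with a log2 difference of -1.65 (SE 0.25, adjusted p = 0.00233). The knockout EB libraries lay below the wild-type EB libraries at both genes.

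The other members called with the filter fell by 0.59 (Hoxd1) to 1.64 (Hoxb4) on the log2 scale. The 4 members below the filter that were called without it were Hoxa4, Hoxa6, Hoxc5 and Hoxd10, which fell by 0.75, 0.11, 0.33 and 0.53. Hoxb4, known from blood stem cells and the hindbrain, was at 1.17 and 1.76 FPKM in knockout EBs, against 6.70 and 6.54 FPKM in wild-type EBs. Hoxb7 was the 1 member tested with the filter that missed the call. It was at 0.213 and 0.507 FPKM in knockout EBs, against 1.56 and 1.13 FPKM in wild-type EBs, with a log2 difference of -0.79 (95% interval -1.45 to -0.13, adjusted p = 0.0551). Its library values did not overlap between the genotypes. The calls of Hoxa5, Hoxb8 and Hoxd1 each ended when 1 EB library was left out.

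Hoxb9, Hoxb13 and Hoxc13 had higher means in knockout EBs. Hoxb13, which acts in the tail and prostate, was at 0.194 and 0.107 FPKM in knockout EBs, against 0 and 0.0508 FPKM in wild-type EBs. Hoxc13, a gene of hair and nail, was at 0.392 and 0.308 FPKM in knockout EBs, against 0.191 and 0.299 FPKM in wild-type EBs. All these values lie far below 1 FPKM, and none of the 3 genes was called.

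Wild-type EBs were then set against wild-type ES cells, which asks what differentiation did to the clusters. All 21 members past the filter were called higher in wild-type EBs (36.1% of genes). They had passed the filter through the wild-type EB libraries, 17 of them through no other library, so that count supports nothing by itself. Without the filter 27 of 39 members were called higher (19.5% of genes). Both wild-type EB libraries lay above both wild-type ES libraries for 34 of 39 members (31.9% of all genes). Hoxb2 rose most, with 12.5 and 11.1 FPKM in wild-type EBs, against 0.0332 and 0.0826 FPKM in wild-type ES cells, a log2 difference of 3.59 (SE 0.25, adjusted p = 5.4e-05). Hoxb4 followed at 2.85 (SE 0.19) and Hoxd9 at 2.73 (SE 0.34). Hoxb7 was the weakest call, at 0.76 (adjusted p = 0.0482), and it was lost when 1 library was left out. Exact zeros were frequent in ES cells, where 12 to 22 members were listed at 0 in a library and Hoxa2, Hoxa4 and Hoxa6 in all 4.

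Knockout EBs set against knockout ES cells showed 3 members called higher among 21 (17.1% of genes called higher) and 3 of 39 without the filter (5.84%). These were Hoxb2, Hoxb4 and Hoxb8, all of Hoxb. Hoxb2 was at 1.36 and 2.88 FPKM in knockout EBs, against 0.0504 and 0.033 FPKM in knockout ES cells, a log2 difference of 1.54 (SE 0.25, adjusted p = 0.00615). Hoxb4 rose by 1.24 (SE 0.19, adjusted p = 0.00482) and Hoxb8, a trunk gene, by 0.66 (SE 0.17, adjusted p = 0.0264). For 19 of 39 members both knockout EB libraries lay above both knockout ES libraries (24.1% of all genes), Hoxd9 and Hoxb3 among them. The count of 3 became 5 without the first knockout EB library.

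In ES cells no member was called in either direction between knockout and wild type (0 of 21 with the filter, 0 of 39 without it; limma, 0.499% and 0.187% of genes called either way). At an unadjusted limma p under 0.05 the counts were 0 of 21 and 1 of 39, Hoxb13, and the share of all genes at that limit was not taken. At these levels, all under 1 FPKM, no difference was detectable.

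The difference between the genotype effects was tested as an interaction, the knockout effect in EBs minus that in ES cells. It was called negative for 16 of the 21 members tested (18.6% of genes called lower) and for 16 of 39 without the filter (6.65%). It was called positive for 0, against 12.7% and 4.36% of genes. The largest were Hoxb2 at -2.06 (SE 0.35, adjusted p = 0.00766), Hoxa13 at -1.91 (SE 0.38, adjusted p = 0.0116) and Hoxa10 at -1.90 (SE 0.41, adjusted p = 0.015). Hoxb7, Hoxb8, Hoxa5 and Hoxd1 were not called. These 21 passed the filter through wild-type EBs, where they are high, and the knockout effect in EBs is part of the interaction, so the count over the 21 supports nothing by itself. With a pseudocount of 0.1 in place of 1, the 16 became 8.

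H3K27me3 lay lower over all 39 Hox genes in knockout EBs than in wild-type EBs, in 1 library each and thus with no replicate check. The share of all genes lower by any amount was not taken. The deposited value is the authors' signal per gene, whose window and scaling the sources used here do not state in full. The values rose with locus length (rho over the 39 genes from 0.46 to 0.56), so levels are compared here within a gene across libraries. The lowest, median and highest members were at 2.85, 8.72 and 106 in knockout EBs, against 7.28, 23.9 and 270 in wild-type EBs. They were at 1.31, 4.08 and 65.2 in knockout ES cells, against 1.73, 5.76 and 91.8 in wild-type ES cells. Hoxa3 was the highest member in every library, but its locus is 44275 bases long and overlaps those of Hoxa4, Hoxa5 and Hoxa6. Per kb of locus it was at 6.11 in wild-type EBs, against 12.9 at Hoxc12. Whether division by locus length suits a value labelled for promoters was not tested.

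**Figure D2:**
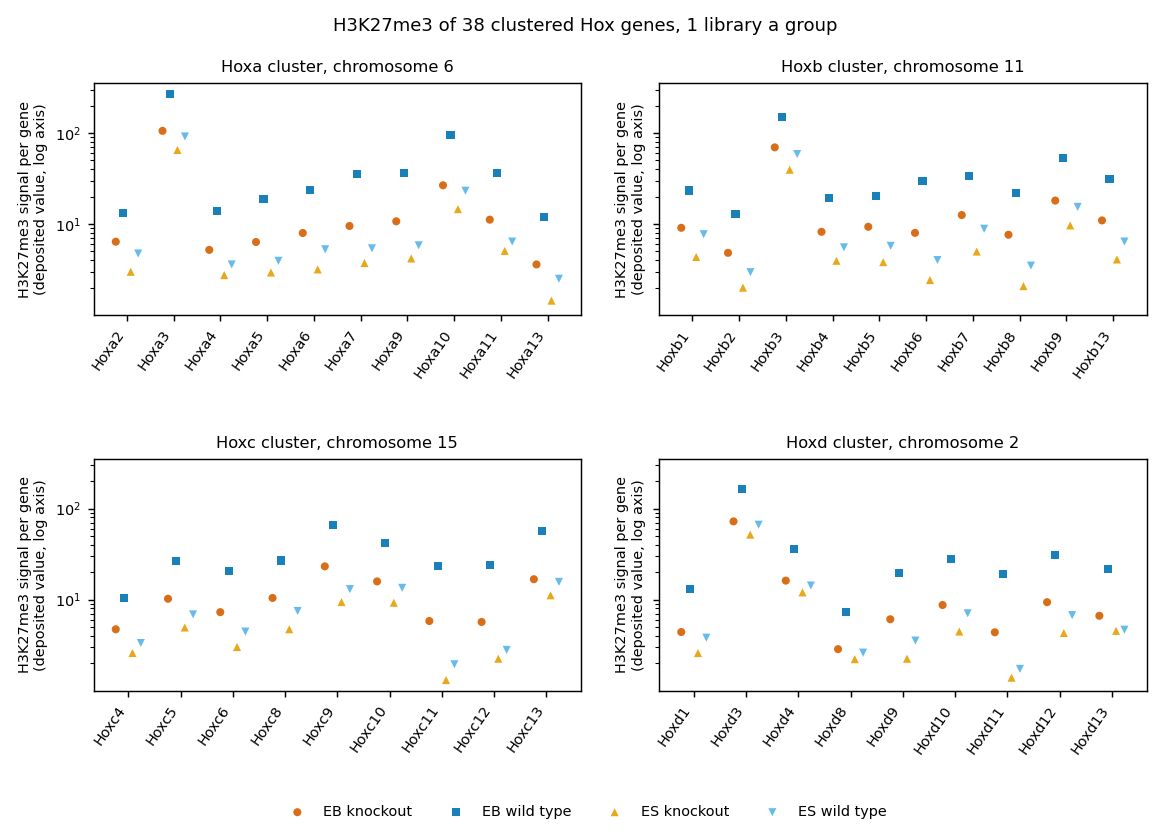
H3K27me3 signal per gene as deposited, on a log axis, for 38 of the 39 Hox genes in paralogue order, 1 library a group. The wild-type EB square is the highest of the 4 points at every gene plotted, and the knockout EB circle lies between it and the ES points.

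The ratio of knockout to wild-type EBs was lowest at Hoxd11, at 0.228, with a median log2 ratio of -1.50 (on values + 0.1), against 0.10 over all genes. It was 2-fold or more lower for 38 of 39 members, against 6.72% of all genes and 12.7% of genes with a locus under 10 kb. The wild-type EB library is scaled apart from the others: its values are whole multiples of 0.04, those of the other 7 ChIP libraries of 0.0267. When each value was counted in its library's steps, the median became -0.92 and the members 2-fold or more lower 14 of 39, against 2.63% of all genes and a median of 0.60 over all genes. A measure that no scaling moves is the share of a library's summed signal that fell on the 39 genes: 0.371% in knockout EBs, against 0.97% in wild-type EBs, and 0.214% in knockout ES cells, against 0.32% in wild-type ES cells.

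The gap was wider toward the posterior end. The median ratio of knockout to wild-type EBs was 0.415 for paralogues 1 to 3, 0.377 for 4 to 8 and 0.306 for 9 to 13. Over the 39 genes the log2 ratio went down with paralogue number (r = -0.69, rho = -0.70), a description of genes that share 2 libraries and lie side by side in 4 clusters. Hoxd11, a gene of the limb and sacral region, had 4.38 in knockout EBs, against 19.2 in wild-type EBs. Hoxc12 had 5.68 in knockout EBs, against 23.9 in wild-type EBs, a ratio of 0.238, although its RNA was close to 0 in both.

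Among wild-type libraries all 39 members were 2-fold or more higher in EBs than in ES cells (11.8% of all genes, 18.6% of those under 10 kb). The median log2 ratio was 1.97, against -0.03 over all genes, and the ratio reached 11.9, at Hoxc11. Counted in steps, the median was 1.39. The median ratio was 2.85 for paralogues 1 to 3, 3.88 for 4 to 8 and 4.77 for 9 to 13, and this ratio shares the wild-type EB library with the one above. Hoxc11 had 23.2 in wild-type EBs, against 1.95 in wild-type ES cells, and Hoxd11 had 19.2, against 1.73. Hoxb2, which rose most in RNA, was among them, and it had 12.9 in wild-type EBs, against 2.96 in wild-type ES cells.

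In the knockout all 39 members were higher in knockout EBs than in knockout ES cells. Of them 24 were so by 2-fold or more (7.60% of all genes, 14.1% of those under 10 kb). The share of all genes higher by any amount was not taken. The median log2 ratio was 1.09, against 0.09 over all genes and 0.28 over those under 10 kb. Median ratios were 1.73, 2.21 and 2.34 from the anterior to the posterior paralogues. Hoxc11 had 5.82 in knockout EBs, against 1.31 in knockout ES cells. These libraries have the same step, and the wild-type EB library does not enter this ratio. In ES cells all 39 members were lower in the knockout, at ratios from 0.562 at Hoxb7 to 0.971 at Hoxd13. None was lower by 2-fold (2.43% of all genes), and the share lower by any amount was not taken here either. The median log2 ratio was -0.54, against 0 over all genes and -0.13 over those under 10 kb.

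**Figure D3:**
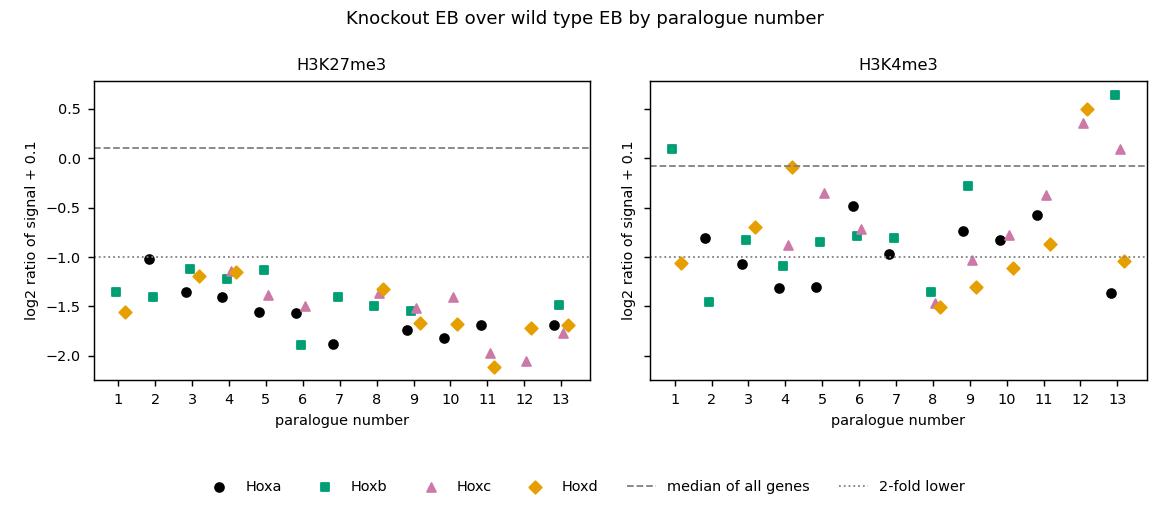
log2 ratio of knockout to wild-type EBs, on signal + 0.1, against paralogue number for H3K27me3 and H3K4me3, 1 point for each of 38 genes and 1 library a group, coloured by cluster. The dashed line is the median of all genes and the dotted line a ratio 2-fold lower. H3K27me3 points reach down to -2.11 at Hoxd11, while H3K4me3 points run from -1.51 at Hoxd8 to 0.64 at Hoxb13.

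H3K4me3 was lower in knockout EBs at most Hox genes, and higher at 5 of them, 4 of which are paralogues 12 or 13. It was lower for 34 of 39 members, and 2-fold or more lower for 15 (3.24% of all genes). It was 2-fold or more higher for 0 (8.55% of all genes). The share of all genes lower by any amount was not taken. The median log2 ratio was -0.83, against -0.08 over all genes. The lowest, median and highest members were at 1.47, 4.30 and 30.7 in knockout EBs, against 1.01, 7.92 and 64.8 in wild-type EBs. In knockout ES cells they were at 0.747, 1.92 and 17.5, against 0.854, 2.21 and 20.8 in wild-type ES cells. The 39 genes held 0.0886% of the summed H3K4me3 signal in knockout EBs, against 0.153% in wild-type EBs.

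Hoxd8 had 3.36 in knockout EBs, against 9.74 in wild-type EBs, Hoxc8 had 2.51, against 7.10, and Hoxb2 had 4.43, against 12.3. These 3 had the lowest ratios, from 0.345 to 0.359. The 5 members that were higher in knockout EBs were Hoxb1, Hoxb13, Hoxc12, Hoxc13 and Hoxd12. Hoxb13 had 3.09 in knockout EBs, against 1.95 in wild-type EBs, and Hoxd12 had 1.47, against 1.01. These 5 were among the members low in RNA in wild-type EBs, at 0.358 FPKM or less.

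**Figure D4:**
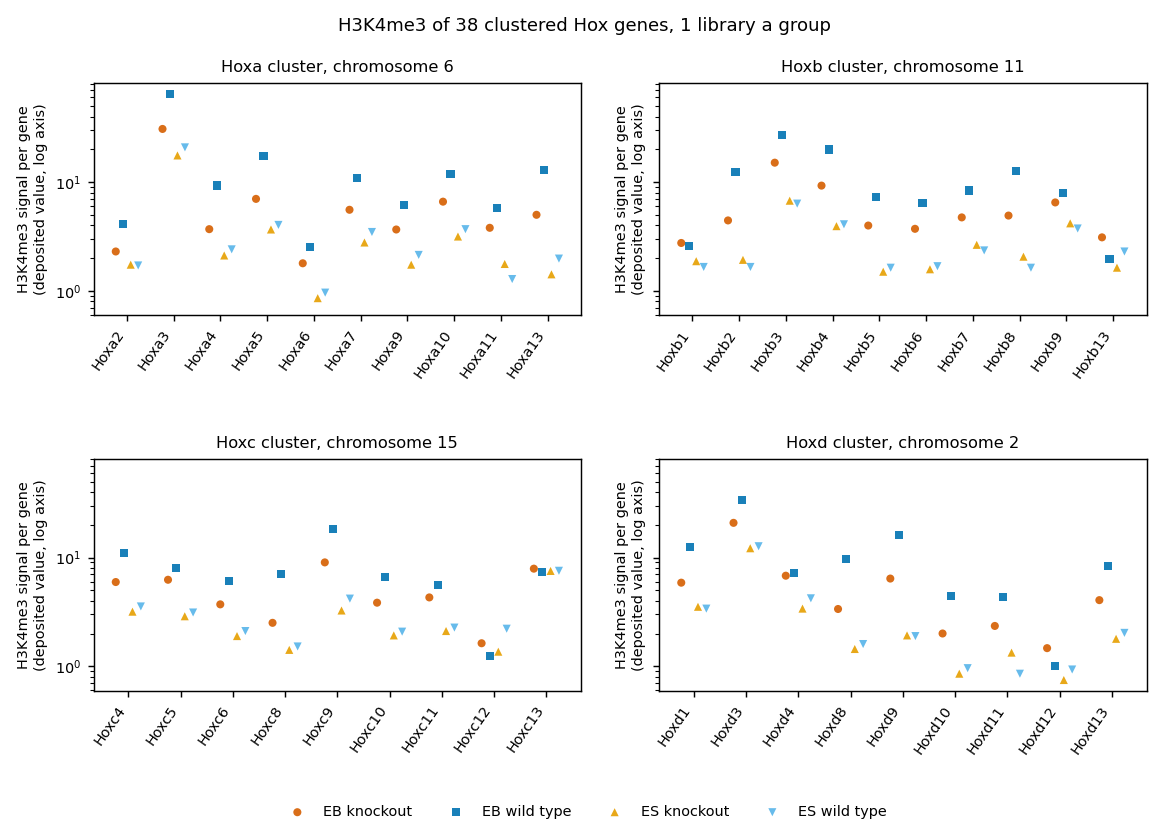
H3K4me3 signal per gene as deposited, on a log axis, for 38 of the 39 Hox genes in paralogue order, 1 library a group. Wild-type EB squares lie above the knockout EB circles at every gene plotted apart from Hoxb1, Hoxb13, Hoxc12, Hoxc13 and Hoxd12, where they lie below.

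Between the wild-type stages, H3K4me3 was 2-fold or more higher in EBs for 33 of 39 members (9.28% of all genes). It was 2-fold or more lower for 0 (10.9%). The median log2 ratio was 1.65, against 0.03 over all genes. Hoxd9 had 16 in wild-type EBs, against 1.89 in wild-type ES cells, the widest ratio at 8.42. The 6 members that stayed under 2-fold were Hoxb1, Hoxb13, Hoxc12, Hoxc13, Hoxd4 and Hoxd12, and Hoxc12 had 1.25 in wild-type EBs, against 2.21 in wild-type ES cells. In the knockout 16 of 39 members were 2-fold or more higher in EBs than in ES cells (1.35% of all genes). All 39 were higher, with Hoxa13 at the widest ratio, 3.53, and a median log2 ratio of 0.97, against 0 over all genes. The share of all genes higher by any amount was not taken for this mark either. In ES cells no member differed by 2-fold between knockout and wild type (0.318% of all genes lower, 0.743% higher).

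Across the 39 genes, the RNA difference between wild-type EBs and ES cells went with that of H3K4me3 (r = 0.71, rho = 0.72) more than with that of H3K27me3 (r = -0.16, rho = -0.11). Between knockout and wild-type EBs the values were r = 0.65 for H3K4me3 and -0.25 for H3K27me3. The 2 marks' ratios between knockout and wild-type EBs had r = -0.20. These are descriptions over genes of a few libraries, with neighbouring genes not independent.

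**Figure D5:**
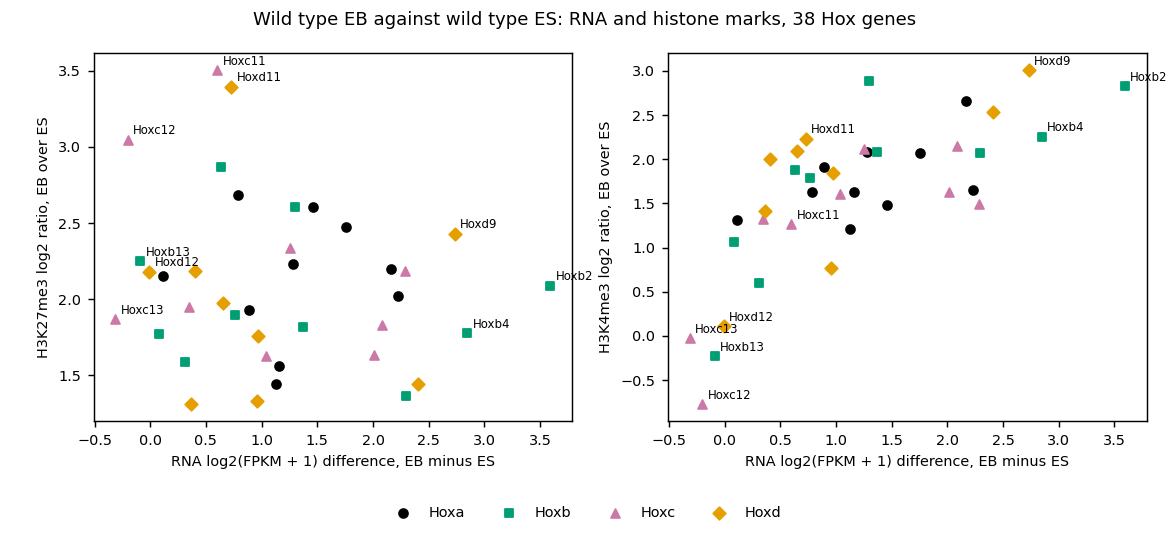
Each point is 1 of 38 of the 39 Hox genes, with the RNA difference of wild-type EBs minus wild-type ES cells in log2(FPKM + 1) on the x axis and the log2 ratio of H3K27me3 (left) or H3K4me3 (right) on the y axis. H3K27me3 was higher in EBs at every gene plotted whatever its RNA did, while Hoxc12, Hoxc13, Hoxb13 and Hoxd12 lie lowest on both axes of the H3K4me3 plot.

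Genes that work with or next to the Hox genes were read in the same fit. Of the 9 TALE homeodomain cofactors, which bind DNA beside Hox proteins, 7 were called lower in knockout EBs and 0 higher, with a median log2 difference of -2.20, against -0.06 over all genes tested. For these and the lists that follow, the shares over all genes tested are 25.9% called lower and 20.0% called higher in knockout EBs. Meis1 was at 0.801 and 2.34 FPKM in knockout EBs, against 20.2 and 18.9 FPKM in wild-type EBs, a log2 difference of -3.06 (SE 0.28, adjusted p = 0.000531). Meis3 fell by 2.32, Pknox2 by 2.2 and Pbx2 by 1.29 on the log2 scale. Pbx4 and Pknox1 were not called.

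Of the retinoic acid pathway, whose receptors act directly on anterior Hox genes, 9 of 14 tested were called lower and 2 higher (Rarg and Aldh1a3), with a median log2 difference of -1.04. Rarb, itself a target of retinoic acid, was at 0.767 and 0.872 FPKM in knockout EBs, against 9.56 and 11.4 FPKM in wild-type EBs, a log2 difference of -2.65 (adjusted p = 0.000252). Rdh10, which makes the precursor of retinoic acid, fell by 1.70, Rara by 1.07 and the degrading enzyme Cyp26b1 by 1.42. Of the posterior axis list 3 of 5 tested were called lower, Gdf11, T and Greb1, and 1 higher, Wnt3. Of the 6 Cdx and ParaHox genes 2 were tested, of which Cdx2 was called lower and Cdx1 was not called. Cdx2, a caudal factor acting upstream of posterior Hox genes, was at 2.24 and 5.45 FPKM in knockout EBs, against 8.26 and 8.50 FPKM in wild-type EBs, a log2 difference of -1.04 (adjusted p = 0.0342). Cdx1, of the same family, was at 0.583 and 1.26 FPKM in knockout EBs, against 0.0314 and 0.182 FPKM in wild-type EBs, a log2 difference of 0.78 (adjusted p = 0.0531). Anterior head factors, which mark a region free of Hox expression, were called lower in 4 of 6 tested and higher in 1, Otx2, at 50.4 and 64.8 FPKM in knockout EBs, against 21.7 and 20.7 FPKM in wild-type EBs.

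Of 22 Polycomb genes 10 were called higher in knockout EBs and 5 lower, with a median log2 difference of 0.38, against -0.06 over all genes tested. The count lower is near the share of 25.9% over all genes. The PRC2 core genes Eed and Suz12 were called higher: Eed was at 133 and 113 FPKM in knockout EBs, against 50.0 and 47.5 FPKM in wild-type EBs, and Suz12 at 101 and 83.5 FPKM, against 26.3 and 33.2 FPKM. The PRC2 cofactor Jarid2 and the reader Cbx7 rose by 1.37 and 2.74. The catalytic gene Ezh2 was at 74.9 and 66.7 FPKM in knockout EBs, against 57.7 and 53.7 FPKM in wild-type EBs, and was not called (adjusted p = 0.0609). Of the 10 Trithorax and H3K27 demethylase genes 5 were called higher and 2 lower, against 20.0% and 25.9% of all genes tested. Ash2l and Dpy30, subunits of H3K4 methyltransferase complexes, were called higher, and the demethylase Kdm6b and Men1 lower. None of these lists had a called member between knockout and wild type in ES cells.

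Of the 10 protein-coding genes bordering the clusters that were tested, 2 were called higher in knockout EBs and 4 lower, against 20.0% and 25.9% of all genes tested. With so few genes these shares are not a result about the neighbours. Calcoco1 was at 19.9 and 22.0 FPKM in knockout EBs, against 44.5 and 43.4 FPKM in wild-type EBs, and Hibadh at 81.8 and 55.2 FPKM, against 36.4 and 33.4 FPKM. The H3K27me3 ratio of knockout to wild-type EBs was 0.294 at Evx1 and 0.246 at Evx2, homeobox genes beside the posterior ends of Hoxa and Hoxd, values within the range of the Hox members. At Skap2 it was 0.463, also within that range. Above the range it was 0.705 at Skap1, 0.693 at Ttll6, 0.866 at Hibadh, 0.819 at Mtx2, 0.991 at Cbx5 and 1.18 at Smug1. Of the non-coding neighbours 2 of 10 passed the filter, Hoxa11os and Hotairm1, both called lower. Hoxb5os was listed at 49.3 FPKM in 1 wild-type ES library and at 0 in the other, which the 2 Hox genes it overlaps, Hoxb5 and Hoxb6, did not share.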

How the data were processed

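The deposited RNA table holds FPKM per gene, 1 column a library, scaled by the authors to transcript length and library size. The submitters' processing notes name the build mm10 and, without saying what each did, Bowtie2, DESeq2, HTSeq, STAR 2.6.0a and Cufflinks 2.2.1, and per the file headers the columns are those Cufflinks writes. FPKM columns summed to 641692 to 781913, and read depth is unknown. In the ChIP tables the authors give 1 signal value for each gene and library, labelled RPKM on promoters. There is no input column, and the depth of the ChIP libraries is unknown. All columns were mapped to samples by name (0 unmapped). Of 53560 rows, 120 second entries of a symbol were left out, the entry with the highest mean being kept. The 15428 genes with at least 1 FPKM in 2 of 8 libraries were fitted with limma 3.58.1 (R 4.3.3) on log2(FPKM + 1), with 1 mean a group, 5 contrasts, a trended prior and p-values adjusted by Benjamini-Hochberg across every gene fitted. The fit was tested on simulated data. A second fit took all 32032 genes above 0 in any library. A log2 difference on this scale understates the change of low genes. ChIP ratios used values + 0.1 for log2 and a 2-fold limit, with no test. Genes given full statistics were the 2 most changed called members of each cluster, members departing from their cluster and up to 4 called genes with the smallest adjusted p of a list, and other members named were picked after their values were seen. The individual values of 1 member and of 1 list gene are not reported here. The members and lists were chosen with earlier results of these data known. Replicate numbers did not pair the libraries. Alternatives covered pseudocount, filter, scaling, quantile normalization, the groups fitted, a replicate block and each library left out. Promoters are from RefSeq (GRCm38.p6). 23 members overlap other annotated loci.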

Additional observations from a re-analysis of the deposited data

Results flagged for a closer look

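The knockout effect differed between EBs and ES cells by a test of the difference itself (limma interaction, adjusted p under 0.05) for 16 of the 21 Hox members tested, all with a negative difference, against 18.6% of all genes tested called negative and 12.7% positive. Without the filter it was 16 of 39, against 6.65% and 4.36%, and with a pseudocount of 0.1 the 16 of 21 became 8. The 21 passed the filter through wild-type EBs, and the 8 members with full statistics, all among the 16, were picked for their change between knockout and wild-type EBs, which is part of this difference, so neither count is independent of that choice. Hoxd9 was not called without the filter (limma adjusted p = 0.0941). The difference, the effect in EBs minus that in ES cells on the log2(FPKM + 1) scale, was -1.90 for Hoxa10, -1.91 for Hoxa13, -2.06 for Hoxb2, -1.76 for Hoxb3, -1.77 for Hoxc8, -1.80 for Hoxc6, -1.77 for Hoxd9 and -1.79 for Hoxd8. All 39 members lay under 1 FPKM in all ES libraries.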

How the results depend on the processing

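The direction of each of the 21 members past the filter was followed for knockout against wild-type EBs and for wild-type EBs against ES cells. None reversed under any alternative that tested it, and neither did the ChIP medians. These members passed the filter through the wild-type EB libraries, which enter both contrasts. A direction or call that was kept thus supports nothing by itself. For the other RNA contrasts only the count of called members was followed. The count of members called between knockout and wild-type EBs was 20 and ran from 16 to 21 with a library left out, and it was 8 where the mean over libraries had to reach 1 FPKM, which left 8 members to test. For wild-type EBs against ES cells the count was 21, from 20 to 21 with a library left out, and 8 under that filter. For knockout EBs against ES cells it was 3, from 2 to 5 with a library left out (5 without the first knockout EB library) and 6 with a pseudocount of 0.1. For the interaction it was 16, from 12 to 18 with a library left out, 8 with a pseudocount of 0.1 and 8 under the filter on the mean. The count in ES cells was 0 under every alternative. Where a library was left out, the lone library of its group was assumed to vary like the other groups. The pairing check gave correlations of 0.07 to 0.31 between groups, and with a replicate block the counts were 20, 20, 4, 0 and 16. Of 21 members, 15 kept their call between knockout and wild-type EBs under every alternative that tested them. The filter on the mean tested only 8 members. The gene lists were fitted on the FPKM scale only. On a TPM scale the all-gene median of that comparison was -0.24, against -0.06 in FPKM. For H3K27me3 the median log2 ratio of knockout to wild-type EBs, -1.50, became -1.60 centred on all genes and -0.92 in steps, an alternative chosen after seeing the data, in which 14 of 39 members were 2-fold or more lower, against 38 of 39 on the deposited values. For wild-type EBs over ES cells 1.97 became 1.77 at equal sums, 1.83 centred on genes under 10 kb and 1.39 in steps. Steps moved all genes: their median was 0.60 for knockout over wild-type EBs and -0.51 for wild-type EBs over ES cells. Centred on genes under 10 kb, knockout EBs over ES cells gave 0.81 and knockout over wild-type ES cells -0.41. For H3K4me3, equal sums gave -0.72 for knockout over wild-type EBs and 1.51 for wild-type EBs over ES cells, and a pseudocount of 0.5 gave 0.85 for knockout EBs over ES cells. A shift of at most 0.1 was counted as unchanged, as ChIP had no replicates. The cause of the other shifts was not tested.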
